A study of Arabidopsis thaliana with 8 samples.

Results

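Strigolactones (SLs) are carotenoid-derived plant hormones, and the genes described here are the 6 *Arabidopsis thaliana* genes of their synthesis, *D27*, *MAX3*, *MAX4*, *MAX1*, *CLAMT* and *LBO*, together with *D27L1* and *D27L2*, both of which resemble *D27*. They were taken by locus, 8 of the 37573 rows of the count table, and all 8 passed the filter on low counts that left 21289 genes for testing. The genes were chosen by their place in the pathway with their normalised counts under dexamethasone (DEX) and mock treatment already known, so the difference between these treatments is given as a description of each gene, without a p-value, and no support is drawn from it.

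The RNA came from hypocotyls of 4-week-old soil-grown plants in a wild type background (genotype WT) that carried *SMXL7pro:SMXL7d53-GR*. In this transgene the promoter of *SMXL7* drives an SL-resistant form of the repressor SMXL7 fused to the hormone-binding part of the glucocorticoid receptor, which holds the protein outside the nucleus until DEX is given. Plants were watered with 15 µM DEX (DEX, 4 samples) or with the same volume of the solvent DMSO (mock, 4 samples) and harvested after 5 h. The plants of both treatments were of the accession Columbia. They had 10 h of light per day in the first weeks and 16 h in the last week. All 8 samples carried the transgene beside the native *SMXL7* gene, and no DEX-treated plants without the transgene were analysed here, so an effect of DEX itself cannot be told apart from that of the fusion protein. The labels do not say whether the 4 samples of a treatment came from separate pools of plants, and p-values then measure only the spread between these samples.

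SL synthesis starts in the plastid, where the isomerase D27 turns beta-carotene into a cis form that the carotenoid cleavage dioxygenases MAX3 (CCD7) and MAX4 (CCD8) then cut in turn to carlactone. Outside the plastid, the cytochrome P450 MAX1 oxidises carlactone to carlactonoic acid, the methyltransferase CLAMT makes its methyl ester, and the oxygenase LBO acts on that ester. The proteins SMXL6, SMXL7 and SMXL8 repress SL responses and are broken down when the hormone binds its receptor D14, a step that needs MAX2, and *MAX3* and *MAX4* are known as genes whose transcripts are held low by this signalling.

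The number of counted reads per library ranged from 49220724 to 85953231 in mock (median 66675793) and from 47976811 to 63996960 after DEX (median 51774720). Values below are normalised read counts, that is reads in a library divided by its effective size and multiplied by the mean effective size of the 8 libraries. *SMXL7* itself, counted over the transgene and the native gene together, stood at 33487 ± 1913 normalised reads in mock and 24703 ± 257 after DEX (SD, n = 4 each). Markers of other organs were looked at as a check of the tissue: none of the 6 root genes reached the filter on low counts, with 13 to 50 reads each over all 8 libraries, whereas all 5 xylem, 4 phloem, 4 cambium and 4 periderm genes did. None of these xylem, phloem, cambium and periderm genes was called changed, beside 6.45% of all genes tested. Their log2 fold changes ran from -0.45 to 0.28. At an edgeR adjusted p under 0.01 without the fold threshold, 1 xylem, 1 phloem and 1 cambium gene were lower and 1 phloem gene was higher. Of all genes tested, 8.69% were lower and 10.9% higher by that measure. Of 7 genes of stomata and leaf epidermis, 6 were tested. Called lower after DEX were 4 (*SPCH*, *FAMA*, *TMM* and *EPF2*), beside 1.81% of all genes tested. *KAT1* (log2 fold change 0.12) and *MYB60* (-0.47) were not called. The sum over the 6 tested genes was 1534 to 2089 normalised reads in mock and 848.5 to 987.6 after DEX, with no gene of the list at 0. The summed level of 8 photosynthesis genes was 370300 to 507400 in mock and 295500 to 367700 after DEX, with all 8 estimates below 0. Of these genes 1 was called lower, beside 1.81% of all genes tested: *RBCS3B*, which encodes a small subunit of Rubisco. Without the fold threshold 3 were lower, beside 8.69% of all genes tested. The part that such differences in marker transcripts played in the values of the SL genes was not tested, and in whole hypocotyls fewer cells of a type cannot be told apart from less RNA per cell.

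To show where each gene starts, the 150 bases before the annotated start of the 4 genes that were called higher after DEX are printed 5′ to 3′ on the strand of the gene, from the RefSeq annotation of TAIR10.1, with a TGTCTC element in capitals (GAGACA where it lies on the other strand). *D27* lies on the minus strand (upstream stretch chr1:711858-712007), and *MAX3* (chr2:18558735-18558884), *MAX4* (chr4:15828078-15828227) and *LBO* (chr3:7541234-7541383) lie on the plus strand.
D27: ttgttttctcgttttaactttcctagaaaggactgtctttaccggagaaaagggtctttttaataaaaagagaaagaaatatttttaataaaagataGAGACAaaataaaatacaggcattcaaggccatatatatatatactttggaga
MAX3: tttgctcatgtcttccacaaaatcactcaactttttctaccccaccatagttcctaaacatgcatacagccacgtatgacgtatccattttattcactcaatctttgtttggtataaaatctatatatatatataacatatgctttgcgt
MAX4: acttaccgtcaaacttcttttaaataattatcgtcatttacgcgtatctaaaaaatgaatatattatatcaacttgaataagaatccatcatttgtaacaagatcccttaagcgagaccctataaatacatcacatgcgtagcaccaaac
LBO: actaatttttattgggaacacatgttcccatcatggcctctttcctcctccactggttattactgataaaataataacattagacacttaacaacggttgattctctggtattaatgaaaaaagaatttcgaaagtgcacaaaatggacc

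Short letter strings were counted on both strands: ATAACAA, which SMXL6 is known to bind in *Arabidopsis*, the auxin response elements TGTCTC and TGTCGG, the G-box CACGTG, and the elements GGNCCCAC and GTGGNCCC of TCP transcription factors, which were counted as 1 set. The matches found in the 8 genes did not overlap each other. In the window from 250 bases before to 50 bases after the start, ATAACAA was found in 0 of the 8 genes and in 13.5% of 27443 protein-coding genes. TGTCTC was found in 1 of the 8 genes, at -53 in *D27*, and in 14.2% of all genes, and the other strings were found in none of the 8 (5.12% of all genes for TGTCGG, 7.68% for CACGTG and 1.87% for either TCP element). In the 1000 bases before the start, TGTCTC occurred in 4 of the 8 genes against 39.6% of all genes, TGTCGG in 1 against 14.6%, and ATAACAA in 1, *D27L2*, against 38.5%, while CACGTG (14.8%) and the TCP elements (3.94%) occurred in none. These are matches of letters, not measured binding. Upstream of *D27* the next protein-coding gene, *SPI*, begins 583 bases away, and AT4G01990 lies 3 bases upstream of *D27L2*. The 1000-base windows of *D27* and *D27L2* thus run into other genes. The matches at -991 in *D27* and at -998 and -325 in *D27L2* lie past the near end of these genes. All matches further upstream are shown with the bases around them, on the strand of the gene, for *D27* at -991 (chr1:712825-712857), for *MAX3* at -818 (chr2:18558049-18558090) and -445 (chr2:18558422-18558463), for *LBO* at -569 (chr3:7540797-7540838) and for *D27L2* at -998 (chr4:871923-871949) and -325 (chr4:872580-872621). The match to ATAACAA in *D27L2* is the only one in the 8 genes.
D27, TGTCTC: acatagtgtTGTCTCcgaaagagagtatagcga
MAX3, TGTCTC: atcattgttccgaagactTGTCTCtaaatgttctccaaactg
MAX3, TGTCGG: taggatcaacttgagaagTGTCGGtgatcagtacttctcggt
LBO, TGTCTC: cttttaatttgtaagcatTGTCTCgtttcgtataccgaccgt
D27L2, ATAACAA: tgATAACAAtcacgtacgtcaggattc
D27L2, TGTCTC: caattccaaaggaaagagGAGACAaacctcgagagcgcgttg

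The first 3 enzymes of the pathway had more transcript after DEX, and the largest difference was at *MAX3*. *D27* (AT1G03055, chr1:710018-711857, 6 exons), which encodes the isomerase, had 140.4, 132.2, 161.8 and 121.7 normalised reads in mock replicates 1 to 4 and 263.3, 312.1, 327.7 and 320.7 in DEX replicates 1 to 4. The 4 DEX values were all higher than the 4 mock values. The means were 139.1 ± 17.0 and 305.9 ± 29.2 (SD, n = 4 each), a 2.18-fold difference with a log2 fold change of 1.13 ± 0.11 (SE). It was the gene with the fewest reads of the 6, with 101 to 324 raw reads per library.

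*MAX3* (AT2G44990, chr2:18558885-18561621, 6 exons, annotated in RefSeq as a partial transcript), the carotenoid cleavage dioxygenase that acts on the product of D27, had 1794, 1339, 1522 and 1580 normalised reads in mock and 5985, 4390, 5845 and 6345 after DEX. The lowest DEX library, replicate 2, was well above the highest mock library. The means of 1559 ± 188 and 5641 ± 860 (SD, n = 4 each) differed 3.61-fold, a log2 fold change of 1.85 ± 0.13 (SE), which was higher than that of 99.0% of the genes tested.

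*MAX4* (AT4G32810, chr4:15828228-15831492, 5 exons), which encodes the dioxygenase that forms carlactone, had 6460, 4671, 5671 and 5395 normalised reads in mock and 13730, 13500, 14820 and 15960 after DEX. The groups did not overlap. The means were 5549 ± 740 and 14500 ± 1130 (SD, n = 4 each), a 2.61-fold difference and a log2 fold change of 1.38 ± 0.09 (SE). *MAX4* shares exon bases with AT4G32820 on the other strand, 330 bases or 15.7% of its exon length, and as strand was not used and reads on more than 1 gene were left out in counting, reads from there would be missing from both genes where the annotation used for counting holds the same overlap. Its level per kilobase, which is divided by the whole exon length, would then be too low. AT4G32820 itself had a log2 fold change of -0.08.

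The estimates were lower at the steps after carlactone, and *CLAMT* moved least. That of *LBO* (0.98 ± 0.09 SE) was close to that of *D27* (1.13 ± 0.11 SE). *MAX1* (AT2G26170, chr2:11140809-11143360, 5 exons), the cytochrome P450 gene, had 1100, 1011, 1242 and 985.9 normalised reads in mock and 1363, 1723, 1447 and 1509 after DEX. All DEX libraries were above all mock libraries, but the lowest DEX value and the highest mock value were close. The means of 1085 ± 116 and 1510 ± 154 (SD, n = 4 each) differed 1.39-fold, a log2 fold change of 0.47 ± 0.09 (SE), which fell short of the 1.5-fold needed for a call.

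*CLAMT* (AT4G36470, chr4:17214766-17216530, 4 exons, minus strand), the methyltransferase gene, had 856.9, 795.8, 847.9 and 799.1 normalised reads in mock and 895.7, 899.6, 942.6 and 982.7 after DEX. The groups did not overlap, yet the step between them was small. The means of 824.9 ± 32.0 and 930.1 ± 41.0 (SD, n = 4 each) gave a 1.13-fold difference and a log2 fold change of 0.17 ± 0.05 (SE).

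*LBO* (AT3G21420, chr3:7541384-7543560, 4 exons), the oxygenase gene of the last step, had 469.8, 429.8, 470.0 and 419.4 normalised reads in mock and 813.8, 1039, 887.4 and 791.6 after DEX. The mock libraries were close to each other, and the DEX libraries were all higher and more spread, with replicate 2 on top. The means of 447.3 ± 26.5 and 883.0 ± 111.9 (SD, n = 4 each) differed 1.97-fold, a log2 fold change of 0.98 ± 0.09 (SE).

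**Figure D1:**
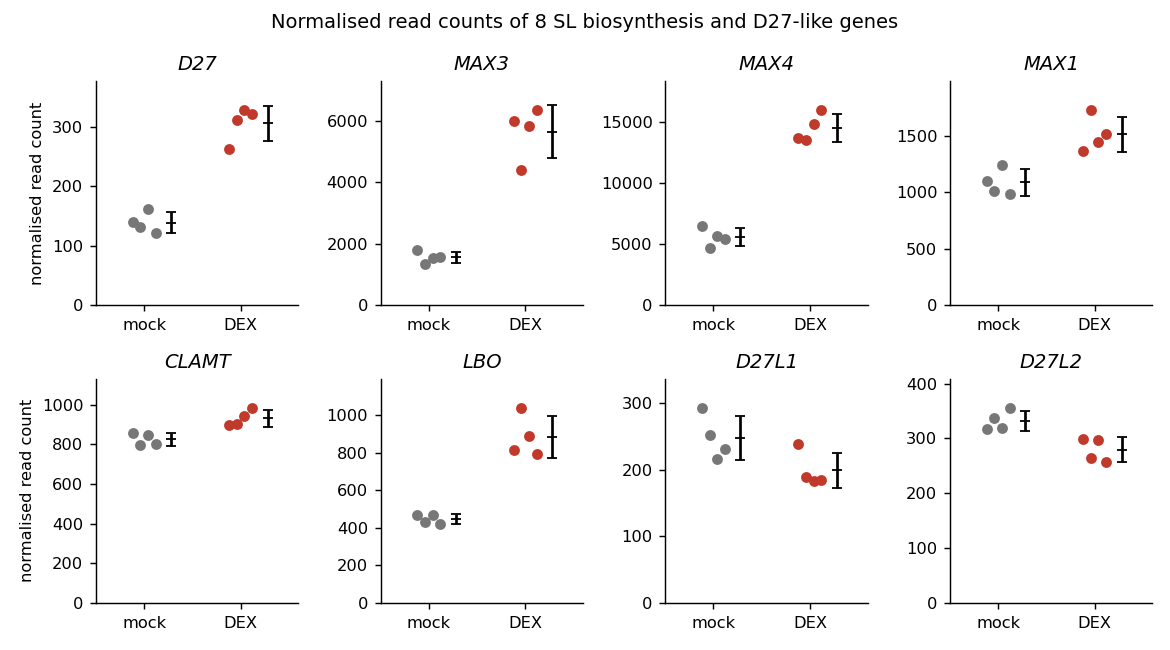
Normalised read counts (vertical axes) of the 8 genes in each mock and DEX library, one panel per gene, with points for libraries and the mean and SD of each group. In the 6 SL biosynthesis genes every DEX point lies above every mock point, whereas in *D27L2* every DEX point lies below, and in *D27L1* the highest DEX point lies within the mock points.

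The D27-like genes lay on the other side of the mock level. D27L1 and D27L2 are annotated as beta-carotene isomerases in RefSeq, as is D27, and share 38.1% and 35.1% of their aligned residues with D27 and 39.7% with each other. *D27L1* (AT1G64680, chr1:24035941-24037429, 3 exons) had 293.0, 252.7, 216.7 and 231.4 normalised reads in mock and 239.4, 188.8, 183.6 and 184.7 after DEX. DEX replicate 1 lay within the mock range and the other 3 DEX libraries below it. The means were 248.5 ± 33.2 and 199.1 ± 26.9 (SD, n = 4 each), with a log2 fold change of -0.32 ± 0.12 (SE).

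*D27L2* (AT4G01995, chr4:872923-874772, 7 exons) had 316.5, 337.7, 318.8 and 355.5 normalised reads in mock and 299.8, 263.9, 297.3 and 256.6 after DEX, so that all DEX libraries were below all mock libraries. The means of 332.1 ± 18.3 and 279.4 ± 22.4 (SD, n = 4 each) gave a log2 fold change of -0.25 ± 0.08 (SE). Neither D27-like gene met the thresholds for a call. The estimates for all 3 isomerase genes rest on few reads, with 144 to 411 raw reads per library for *D27L1*.

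A gene was called changed where its Benjamini-Hochberg adjusted p from the quasi-likelihood test of edgeR was under 0.01, its fold change over 1.5 in either direction and its mean normalised count over 50. This held for 6.45% of the genes tested. By this rule 4 of the 8 genes were called higher (*D27*, *MAX3*, *MAX4* and *LBO*), beside 4.64% of all genes tested, and 0 were called lower, beside 1.81% of all genes. All DEX libraries were above all mock libraries in 6 of the 8 genes, beside 16.2% of all genes, and below them in 1 gene, beside 15.1% of all genes. With the adjusted p alone, without the fold and mean count thresholds, *MAX1* was added, giving 5 genes higher beside 10.9% of all genes and 0 lower beside 8.69%. As the genes were chosen with this contrast in view, nothing is read from these shares. The median log2 fold change was 1.05 over the 6 SL biosynthesis genes, -0.29 over both D27-like genes and -0.01 over all genes tested.

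**Figure D2:**
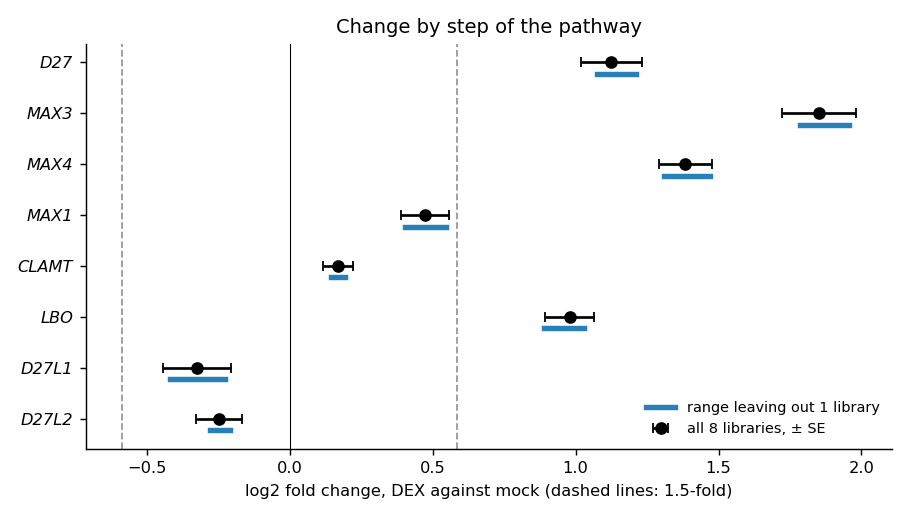
log2 fold change between DEX and mock (horizontal axis) of the 6 biosynthesis genes in order of the pathway and of both D27-like genes, with bars for the standard error and blue lines for the range over the fits that each left out 1 of the 8 libraries. *MAX3* lies highest at 1.85, *CLAMT* lies nearest to 0 among the biosynthesis genes at 0.17, and *D27L1* and *D27L2* lie below 0.

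To compare genes with each other, counts were divided by exon length and by the effective size of the library. This gave RPKM values computed here on the effective and not the total library size. In mock, *MAX4* had the highest level at 43.5 ± 5.8, followed by *MAX3* at 12.1 ± 1.5, *MAX1* at 9.86 ± 1.05, *CLAMT* at 8.88 ± 0.34, *LBO* at 4.53 ± 0.27, *D27L2* at 4.30 ± 0.24, *D27L1* at 3.08 ± 0.41 and *D27* at 2.04 ± 0.25 (SD, n = 4 each). Of neighbours in this order, *MAX3* and *MAX1*, *MAX1* and *CLAMT*, and *LBO* and *D27L2* had overlapping ranges over the 4 libraries. The gene of the first step thus had the lowest level of the 8 in mock.

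After DEX, the levels per kilobase were 114 ± 8.9 for *MAX4*, 43.8 ± 6.7 for *MAX3*, 13.7 ± 1.4 for *MAX1*, 10.0 ± 0.4 for *CLAMT*, 8.95 ± 1.13 for *LBO*, 4.48 ± 0.43 for *D27*, 3.62 ± 0.29 for *D27L2* and 2.47 ± 0.33 for *D27L1* (SD, n = 4 each). The order of the first 5 genes was as in mock, and *D27* stood above both D27-like genes, with a range that overlapped that of *D27L2*. The ranges of *CLAMT* and *LBO* also overlapped. *MAX3*, close to *MAX1* in mock, was clear of it after DEX.

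**Figure D3:**
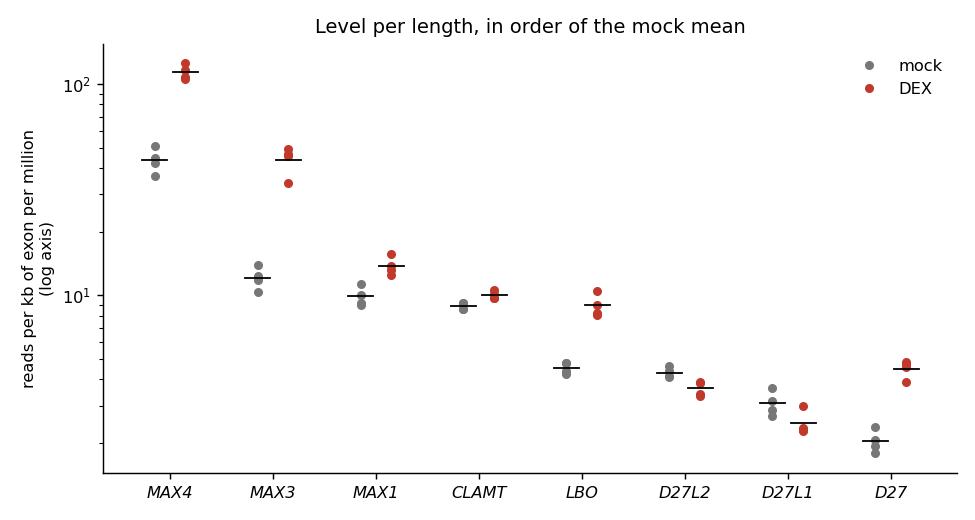
Levels of the 8 genes in reads per kilobase of exon, scaled by effective library size as RPKM (log axis), by library, in mock and after DEX. *MAX4* is highest in every library, and *D27* passes from the lowest level in mock (2.04) to a level above both D27-like genes after DEX (4.48).

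The sum of the 6 biosynthesis genes per kilobase was 71.0 to 90.6 in the mock libraries and 181 to 211 in the DEX libraries. *MAX4* made up 53.6 ± 1.8% of this sum in mock and 58.4 ± 0.8% after DEX, and *MAX3* 14.9 ± 0.7% and 22.4 ± 2.5% (SD, n = 4 each). The genes thus drew apart in level: the highest of the 8 genes exceeded the lowest 21.5 ± 3.1 times in mock and 46.8 ± 7.9 times after DEX. These ratios follow from the same counts as the fold changes above.

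Within a library, the ratio of 2 genes does not depend on the scaling between libraries. There were 0.569 reads of *D27* for each read of *D27L1* in mock and 1.57 after DEX (0.479 to 0.747 and 1.10 to 1.79 over the libraries), and 0.421 and 1.10 for each read of *D27L2*, whereas *D27L1* and *D27L2* stood at a ratio of 0.751 in mock and 0.713 after DEX. There were 3.56 reads of *MAX4* for each read of *MAX3* in mock and 2.60 after DEX, with ranges of 3.41 to 3.73 and 2.29 to 3.07 that did not overlap. For *MAX3* over *MAX1*, the genes on either side of carlactone formation but for *MAX4*, the ratio was 1.45 in mock and 3.8 after DEX. The ratio of *LBO* to *CLAMT* was 0.542 in mock and 0.953 after DEX.

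Among libraries of the same treatment the genes varied together in some pairs and in opposite directions in others. Over the 8 libraries, after each group mean was taken off, Pearson's r of the 28 pairs of genes ran from -0.75 to 0.87 with a median of 0.02, and 14 pairs were above 0. Among the 6 biosynthesis genes, 10 of 15 pairs were above 0 with a median of 0.41, and of the 12 pairs of a biosynthesis gene with a D27-like gene 9 were below 0 with a median of -0.40. The highest were *MAX4* with *CLAMT* (0.87), *MAX1* with *LBO* (0.78) and *MAX3* with *MAX4* (0.78), and the lowest was *MAX1* with *D27L2* (-0.75). All pairs share the same 8 libraries and their depths, and with 4 libraries per treatment these values are a description.

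**Figure D4:**
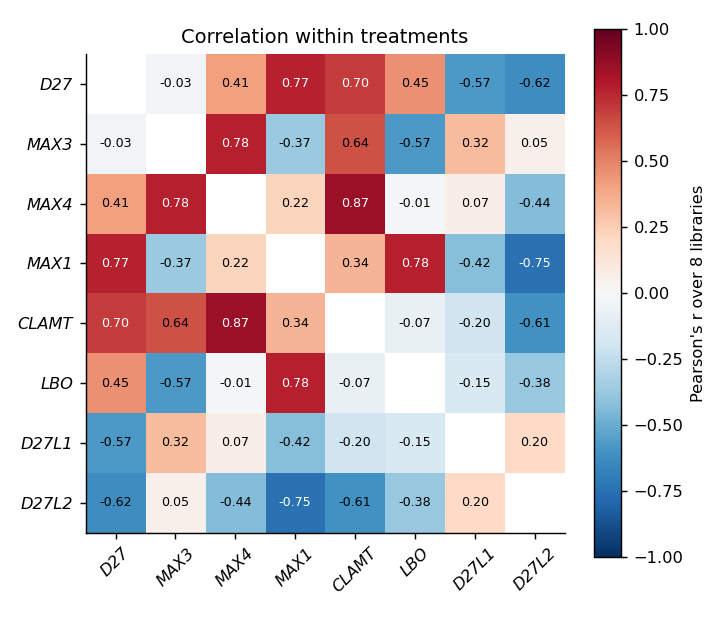
Pearson's r between the 8 genes over the 8 libraries after the mean of each treatment was taken off, as a colour from -1 to 1. Values run from -0.75 (*MAX1* with *D27L2*) to 0.87 (*MAX4* with *CLAMT*), and both signs occur among the 6 biosynthesis genes.

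The genes whose log2 level was most like that of the 3 plastid enzymes across all 8 libraries were named by Pearson's r over 19156 genes, a measure that the difference between the treatments dominates. For *MAX3* these were *HAE* (r = 0.997), *HB17* (0.996) and *IAA11* (0.994), for *MAX4* *HAT2* (0.998), AT1G20740 (0.996) and AT1G70640 (0.996), and for *D27* *FQR1* (0.997), AT1G47655 (0.997) and *ABCG21* (0.995). Between 766 and 831 genes exceeded 0.95 for each of the 3, so that these names are a few of many. Of the named genes, *HAE* encodes a receptor kinase known from floral organ shedding, *IAA11* an auxin signalling repressor, and *HB17* and *HAT2* homeodomain transcription factors.

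The gene lists from here on, like the tissue markers above, were chosen by role with earlier results of these data known. Their adjusted p-values are therefore a description and not independent tests. Upstream of SL synthesis, the tested genes of the plastid MEP pathway, which supplies the precursors of carotenoids, and of carotenoid synthesis all differed by less than 1.5-fold. Of 10 genes of the MEP pathway and of geranylgeranyl diphosphate synthesis, 9 were tested and 0 called, with log2 fold changes from -0.26 to -0.02 and a median of -0.13. Without the fold threshold 2 were lower in the edgeR test, *DXS*, the gene of its first enzyme (-0.22, edgeR adjusted p = 0.0027), and *DXR*, which was named after its value was seen. *HDR*, the gene of the last step, was at 8606 ± 142 normalised reads in mock and 8051 ± 360 after DEX (SD, n = 4 each). At an unadjusted p under 0.05, 7 of the 9 were lower and 0 higher, beside 20.9% of all genes lower and 20.9% higher, and DESeq2 called 0. All 8 photosynthesis markers, also of the plastid, were lower at that p, with a median log2 fold change of -0.33, and their part in the values of the MEP pathway genes was not tested. *GGPPS11*, also named after its value was seen, had 51 reads over all libraries and shares all its exon bases with another annotated gene, so it was not tested.

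Of 15 carotenoid genes 0 were called, and the median log2 fold change was -0.11. With the edgeR adjusted p alone 1 was higher and 4 were lower, beside 10.9% and 8.69% of all genes. At an unadjusted p under 0.05, 2 were higher and 6 lower in edgeR, beside 20.9% of all genes in each direction, and DESeq2 called 0. *PSY*, the phytoene synthase gene that commits precursors to carotenoids, was at 4203 to 4294 normalised reads in mock and 4658 to 4962 after DEX (log2 fold change 0.16 ± 0.04 SE, edgeR adjusted p = 0.0044), below the fold threshold. *ZEP*, the zeaxanthin epoxidase gene, was at 3965 ± 190 in mock and 3686 ± 242 after DEX (SD, n = 4 each). *LCYE*, the lycopene epsilon cyclase gene of the branch towards lutein, which was named after its value was seen, was at 1070 to 1145 in mock and 760.2 to 879.3 after DEX (-0.42 ± 0.05 SE, edgeR adjusted p = 6.68e-05), also below the fold threshold.

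Among the relatives of the SL enzymes, single genes were called higher. Of 7 other carotenoid cleavage dioxygenase genes 4 were tested, and only *NCED3* was called, the 9-cis-epoxycarotenoid dioxygenase gene of abscisic acid synthesis, with 119.8 to 161.1 normalised reads in mock and 651.3 to 845.8 after DEX (log2 fold change 2.39 ± 0.11 SE, edgeR adjusted p = 3.74e-08). *CCD1*, the most abundant of them, was at 6096 ± 284 in mock and 5737 ± 290 after DEX (SD, n = 4 each). Of 6 other SABATH methyltransferase genes, the family of *CLAMT*, 4 were tested, and *IAMT1*, which encodes an indole-3-acetic acid methyltransferase, was called higher, with 220.8 to 303.0 normalised reads in mock and 595.7 to 743.2 after DEX (1.3 ± 0.10 SE, edgeR adjusted p = 1.15e-06). *FAMT*, a farnesoic acid methyltransferase gene, varied widely in mock, from 87.7 to 405.0, and was at 431.1 to 613.5 after DEX (1.07 ± 0.41 SE, edgeR adjusted p = 0.094), which was not called. CLAMT shares 39.0% of its aligned residues with IAMT1. The part of the tissue markers that differed between the treatments in these values was not tested. Over the 4 tested genes of each list, log2 fold changes ran from -0.09 to 2.39 for the dioxygenases and from 0.09 to 1.3 for the methyltransferases. The medians, 0.40 and 0.59 beside -0.01 over all genes, lay between genes near 0 and genes with higher values. They do not describe a shift of the whole list.

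On the side of SL breakdown, AT5G06570, annotated as an alpha/beta-hydrolase, was called lower, with 249.5 to 327.1 normalised reads in mock and 105.8 to 142.4 after DEX (log2 fold change -1.16 ± 0.12 SE, edgeR adjusted p = 1.13e-05). It was the only gene called of the 3 tested in a list of 4 genes of SL breakdown and regulation of SL synthesis. Its groups did not overlap. *CXE20*, a carboxylesterase gene, was at 377.2 ± 37.3 in mock and 339.2 ± 42.4 after DEX (SD, n = 4 each).

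Phosphate shortage is known to raise SL synthesis in many plants, so 15 genes of the phosphate starvation response were looked at, of which 12 were tested. Of these 2 were called higher and 0 lower, as with DESeq2, beside 4.64% higher and 1.81% lower of all genes in edgeR. With the edgeR adjusted p alone 3 were higher and 1 lower, *PHO2*, beside 10.9% and 8.69% of all genes. At an unadjusted p under 0.05 in edgeR 4 were higher and 1 lower, beside 20.9% of all genes in each direction. The median log2 fold change was 0.17. *SPX1*, a phosphate-sensing inhibitor of the regulator PHR1, was at 1108 to 1437 normalised reads in mock and 1906 to 2627 after DEX (0.87 ± 0.11 SE, edgeR adjusted p = 0.00029). *PAP17*, an acid phosphatase gene, was at 526.6 to 707.5 in mock and 759.0 to 1139 after DEX (0.63 ± 0.13 SE, edgeR adjusted p = 0.0040), just past the fold threshold, and the call was lost in 7 of 18 alternative settings, among them without DEX replicate 4 (0.55). *PHO2*, which encodes a ubiquitin-conjugating enzyme that limits phosphate uptake, was at 27394 ± 840 in mock and 23643 ± 1125 after DEX, and *AT4*, a non-coding RNA of the response, at 5486 ± 378 and 5720 ± 848 (SD, n = 4 each).

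**Figure D5:**
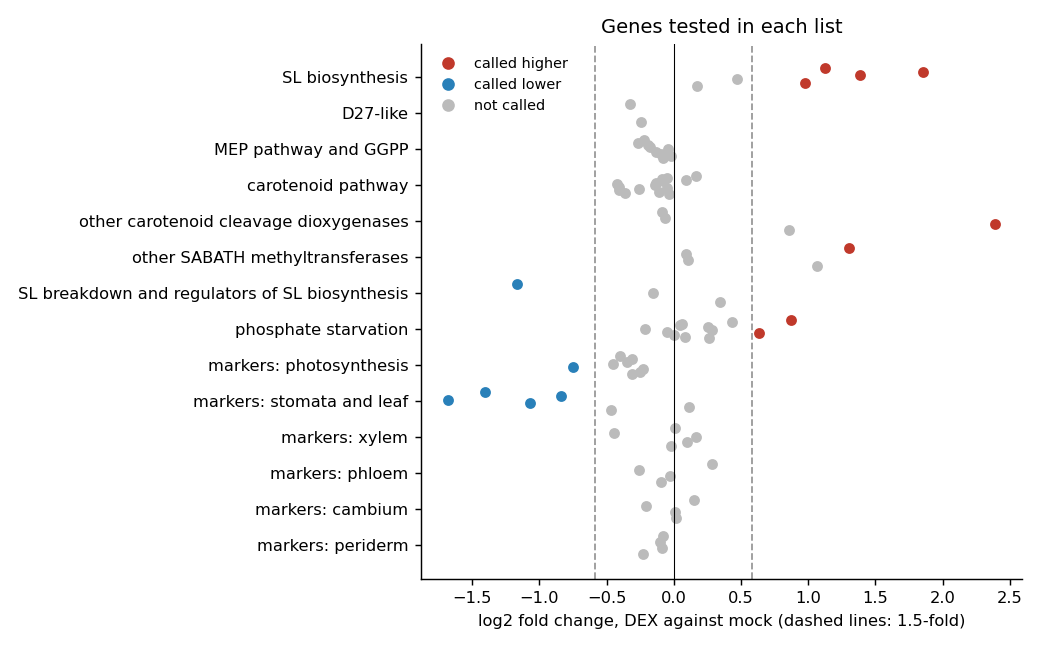
log2 fold change between DEX and mock (horizontal axis) of each tested gene, one row per list, with colours for genes called higher, lower or not called and dashed lines at a 1.5-fold change. The 6 biosynthesis genes lie from 0.17 to 1.85, while the 9 MEP pathway genes lie from -0.26 to -0.02 and the 15 carotenoid genes from -0.42 to 0.16.

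Of 16 protein-coding neighbours of the 8 loci 12 were tested and 0 called, beside 6.45% of all genes tested. An unadjusted p under 0.05 in edgeR was found for 6 of the 12, beside 20.9% of all genes higher and 20.9% lower. Nothing is read from these counts. The log2 fold changes of the neighbours ran from -0.82 to 0.40. The lowest was AT3G21410, next to *LBO*. A search of the exons of the 8 genes against the genome for other matches of at least 75 bases found 2 for *LBO* (the better with 74.4% identity over 90 bases) and 1 for *CLAMT* (79.1% over 311 bases, in no annotated gene), so near-identical copies that could split the reads were not seen.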

How the data were processed

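RNA-seq libraries of hypocotyl RNA (polyA selection) were made from 8 samples. The authors aligned reads with STAR (2.7.8a) and deposited the raw read counts per gene, counted by summarizeOverlaps in union mode with strand ignored and with reads at more than 1 place left out. TAIR10 is named as the build in the submitters' processing notes, and the annotation is not given in the sources used here. A deposited table of counts normalised with DESeq2 (1.34.0) was not used.

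Counts were filtered (filterByExpr), scaled by TMM and compared between DEX and mock in R (4.3.3) with edgeR (4.0.16, quasi-likelihood), without a replicate term, with Benjamini-Hochberg adjustment over 21289 genes. Calls used the thresholds of the study: adjusted p under 0.01, fold change over 1.5 and mean normalised count over 50. DESeq2 (1.42.0), other scalings, filters and thresholds, a replicate block and leaving out each library were alternatives. On counts simulated with the same dispersion for every gene (biological coefficient of variation 0.0662), 90 of 100 genes changed 2-fold were recovered. So were 92 of 100 changed 4-fold, with 0 false calls. In the data dispersion differs between genes, so this does not give the rate of false calls there.

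Coordinates, exon lengths and sequences came from the RefSeq annotation of TAIR10.1, to which all 37573 rows were matched by locus. Protein identity was computed with Biopython (1.88) from translated coding sequences, and copies were searched with blastn (2.17.0). The 8 genes and the gene lists were chosen with earlier results of these data known. Named were the 8 genes, from each other list the called genes and at most the 2 most abundant others, the 3 genes most like *MAX3*, *MAX4* and *D27*, and *SMXL7*; *DXR*, *LCYE*, *GGPPS11* and the neighbouring genes were named outside this rule, after their values were seen.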

Additional observations from a re-analysis of the deposited data

Results flagged for a closer look

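*D27L1* in DEX replicate 1 stood apart from its group, with 239 normalised reads against 184 to 189 in the other 3 DEX libraries. The gap to the nearest library was 0.907 of the whole range of the group, above Dixon's 95% critical value for 4 samples. Without this library the log2 fold change of *D27L1* was -0.42 in place of -0.32. It was the only one of 26 groups of libraries (13 genes in mock and after DEX) to stand apart in this way, and chance flags about 1 in 20 groups.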

How the results depend on the processing

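The 4 calls among the 8 genes (*D27*, *MAX3*, *MAX4* and *LBO*) were made under all 18 alternatives. *MAX1* was added without the fold threshold (log2 fold change 0.47) and without mock replicates 1 and 3, the deepest libraries (0.60), an alternative chosen after seeing the data. No estimate changed sign among the 13 genes followed, which were the 8 and the 5 called in the pathway lists (*NCED3*, *IAMT1*, *SPX1*, *PAP17* and AT5G06570); the called tissue markers were not followed. With 1 library left out at a time, the log2 fold change was 1.08 to 1.21 for *D27*, 1.79 to 1.96 for *MAX3*, 1.31 to 1.47 for *MAX4*, 0.41 to 0.55 for *MAX1*, 0.14 to 0.19 for *CLAMT*, 0.89 to 1.03 for *LBO*, -0.42 to -0.22 for *D27L1* and -0.28 to -0.21 for *D27L2*. With a replicate block the same 4 calls were made, and 1371 genes were called in all against 1373; same-numbered libraries correlated at -0.04 to 0.12, and 1 of 4 mock libraries correlated best with its own number, so the numbers were not shown to pair the samples. In the pathway lists, the marker lists left out, 4 genes were called higher (3 to 4 with 1 library left out) and 1 lower. Without the fold threshold 8 were called lower and 6 higher. *PAP17* was not called under upper-quartile scaling (0.58), without mock replicate 2 (0.57) or without DEX replicate 4 (0.55), where the fold fell below 1.5. It was not called without mock replicate 3 (0.61), DEX replicate 1 (0.64), DEX replicate 3 (0.61) or mock replicates 1 and 3 (0.64) either, where the fold stayed past the threshold and the adjusted p in edgeR rose to 0.0126 to 0.0516. Over all genes, 71.9% of calls were higher, 65.8% when scaled by total counts, 65.3% by upper quartile and 55.5% without the fold threshold (2204 higher and 1766 lower against 987 and 386). Scaling by total counts moved the median log2 fold change of all genes from -0.01 to -0.05. With the length of the longest transcript, *D27L2* stood at 4.63 in mock, above *LBO*. The median correlation between the 8 genes was -0.04 with Spearman's rho. Depth limits *D27* and both D27-like genes most, since they had the fewest reads.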
